A study of Homo sapiens with 15 samples.

Results

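The 9 genes described here write or erase DNA methylation and were followed through the differentiation of the human embryonic stem cell line H1 toward cardiomyocytes on laminin. The genes were chosen by name: the maintenance methyltransferase DNMT1 and its partner UHRF1, the de novo methyltransferases DNMT3A and DNMT3B with their cofactor DNMT3L, the oxidases TET1, TET2 and TET3, and the glycosylase TDG. All 9 were present among the 48777 genes of the deposited tables. Bulk RNA-seq of total RNA depleted of ribosomal RNA covered days 0, 4, 9, 11 and 20, with 3 libraries per day and 15 libraries in all. Every library came from H1 cells of 1 line with no genetic change, grown on laminins LN-521 and LN-221 according to the labels, in NutriStem medium on day 0. The treatment note of the labels puts the Wnt activator CHIR99021 on day 4 for 24 h and the Wnt inhibitor IWP2 on day 7 for 2 days, in RPMI medium with insulin-free B27. The growth note of the same labels gives CHIR99021 on days 1 and 3, IWP2 on day 5 and another B-27 supplement from day 11. These notes do not settle whether the libraries of day 4 had met CHIR99021. Days 0 and 4 are described as the early days, and days 9, 11 and 20 as the late days. The deposited sample table lists LN-521 alone for the 3 libraries of day 0, so that laminin and day cannot be told apart in the comparison of day 4 with day 0.

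DNA methylation in mammals is placed on cytosine followed by guanine. DNMT3A and DNMT3B methylate sites that carry no mark, and DNMT3L, which has no catalytic activity of its own, binds both and stimulates them. After replication UHRF1 recognises sites methylated on one strand and brings DNMT1 to copy the mark to the new strand. The TET enzymes oxidise the methyl group with the help of iron and 2-oxoglutarate, and TDG removes the more oxidised bases, which base excision repair then replaces with cytosine. Pluripotent human cells are known for high levels of DNMT3B and TET1.

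By known function the maintenance pair stands closest to the cell cycle among these genes, since DNMT1 and UHRF1 act at the replication fork. The sequences shown are those of the 9 genes in which an octamer of the E2F type, the motif of the transcription factors that drive S-phase genes, lay near a start site. The octamers searched were TTTCGCGC, TTTGGCGC, TTTCCCGC and TTTGCCGC, on both strands, in RefSeq windows of GRCh38.p14 that reach from 250 bases before to 50 bases after each annotated start. Of 35116 such windows 1164 held at least 1 of them (3.31%), and of 15 cell cycle genes of a written list with a window 8 did, against 3.99% of all genes. Windows were found for 8 of the 9 genes, 19 windows in all, and only the DNMT1 window and 2 of the 3 UHRF1 windows held an octamer. DNMT3L had no window. The only window of DNMT3B, chr20:32779602-32779901, lies inside the gene, so the sequence at its 5′ end, at position 32762385, was not searched. The windows of DNMT1 and UHRF1 also lie inside the annotated genes, and their 5′ ends, at positions 10231286 and 4903080, were not searched either. The windows with an octamer are printed from 200 bases before to 20 bases after the start, 5′ to 3′ on the strand of the gene, with the octamer in capitals.
DNMT1 start, chr19:10194934-10195153, minus strand: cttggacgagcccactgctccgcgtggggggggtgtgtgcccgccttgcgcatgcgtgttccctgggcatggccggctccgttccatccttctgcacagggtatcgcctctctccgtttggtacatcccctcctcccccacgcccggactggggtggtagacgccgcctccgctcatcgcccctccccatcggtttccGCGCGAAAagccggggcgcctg
UHRF1 start, chr19:4909301-4909520, plus strand: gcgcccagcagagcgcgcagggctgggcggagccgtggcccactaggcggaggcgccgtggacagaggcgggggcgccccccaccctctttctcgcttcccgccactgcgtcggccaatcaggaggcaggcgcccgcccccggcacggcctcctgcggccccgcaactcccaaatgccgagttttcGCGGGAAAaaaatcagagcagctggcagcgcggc
UHRF1 start, chr19:4909944-4910163, plus strand: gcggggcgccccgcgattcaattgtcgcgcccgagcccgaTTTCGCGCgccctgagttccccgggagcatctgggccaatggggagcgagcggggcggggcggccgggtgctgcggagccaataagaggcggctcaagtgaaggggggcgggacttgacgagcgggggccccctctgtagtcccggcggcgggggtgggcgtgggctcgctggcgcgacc
The DNMT1 octamer began 2 bases before the start site, and those of UHRF1 began 14 and 160 bases before their starts. A match of letters describes the sequence alone, and binding was not measured.

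Libraries held between 11990302 and 33469703 counts on genes, with a median of 22867831. Levels of 1 gene are given as CPM, counts scaled to library size after TMM normalization over the 15 libraries. Levels of different genes are compared as TPM, which divides by gene length, rescaled to 1 total in every library after genes with an implied length under 200 bases were left out. The share of reads mapped uniquely was lowest in day 0 replicate 3 (35%, also the library with the fewest counts) and in day 9 plate 2 (46%). The other libraries lay between 57% and 86%. RNA integrity and the number of genes with counts set 1 library of day 20 apart. The day 20 library of plate 2_3 had an RNA integrity number of 6.1, where the others lay between 8.8 and 10.0, and counts on 48230 genes, where the others lay between 30886 and 39551. In it 252 autosomal genes that were silent on the earlier days had a median of 11.958 reads per kb, where the other day 20 libraries had 0 and 0.676. At the same CPM plate 2_3 also had a higher rescaled TPM than the other day 20 libraries. For DNMT1 it had 114 CPM and 72.4 rescaled TPM, where plate 2 had 84.14 and 35.3 and plate 6_1 76.97 and 31.9. For TET1 plates 2, 2_3 and 6_1 had 226.4, 148.2 and 222.6 CPM and 100.3, 99.25 and 97.45 rescaled TPM. TMM scaling enters CPM and not rescaled TPM, so this gap lies between the 2 measures. Levels of day 20 in either measure, with their sums and SDs, depend on the choice, and shares within a library do not. Which measure is nearer the true level was not tested, and an extreme of day 20 can differ between them. The CPM or counts of the 9 genes in plate 2_3 are named where they stand at an extreme of day 20. The fold changes of DNMT1, UHRF1 and DNMT3L between days 0 and 20 are also given without this library.

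Among the 9 genes the largest log2 fold change late against early was that of DNMT3B, which ranked among the most abundant transcripts of the early days and fell between days 4 and 9 and between days 11 and 20. TET2 rose, DNMT1, UHRF1, TET1 and the scarce DNMT3L fell, DNMT3A passed at the step from day 4 to day 9 alone, and TET3 and TDG did not pass the test in any comparison. In the comparison of the 9 late with the 6 early libraries, by edgeR's quasi-likelihood test on counts with Benjamini-Hochberg adjustment over 24767 genes, 5 of the 9 genes were lower (background 24.9% of all genes tested) and 1 was higher (background 27.5%). Of all genes tested 50.4% differed among the 5 days, and so did 6 of these 9. The counts were not tested against that background, so what follows describes the sizes of the changes rather than their number. In bulk RNA fewer cells of a type and less RNA per cell cannot be told apart.

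**Figure D1:**
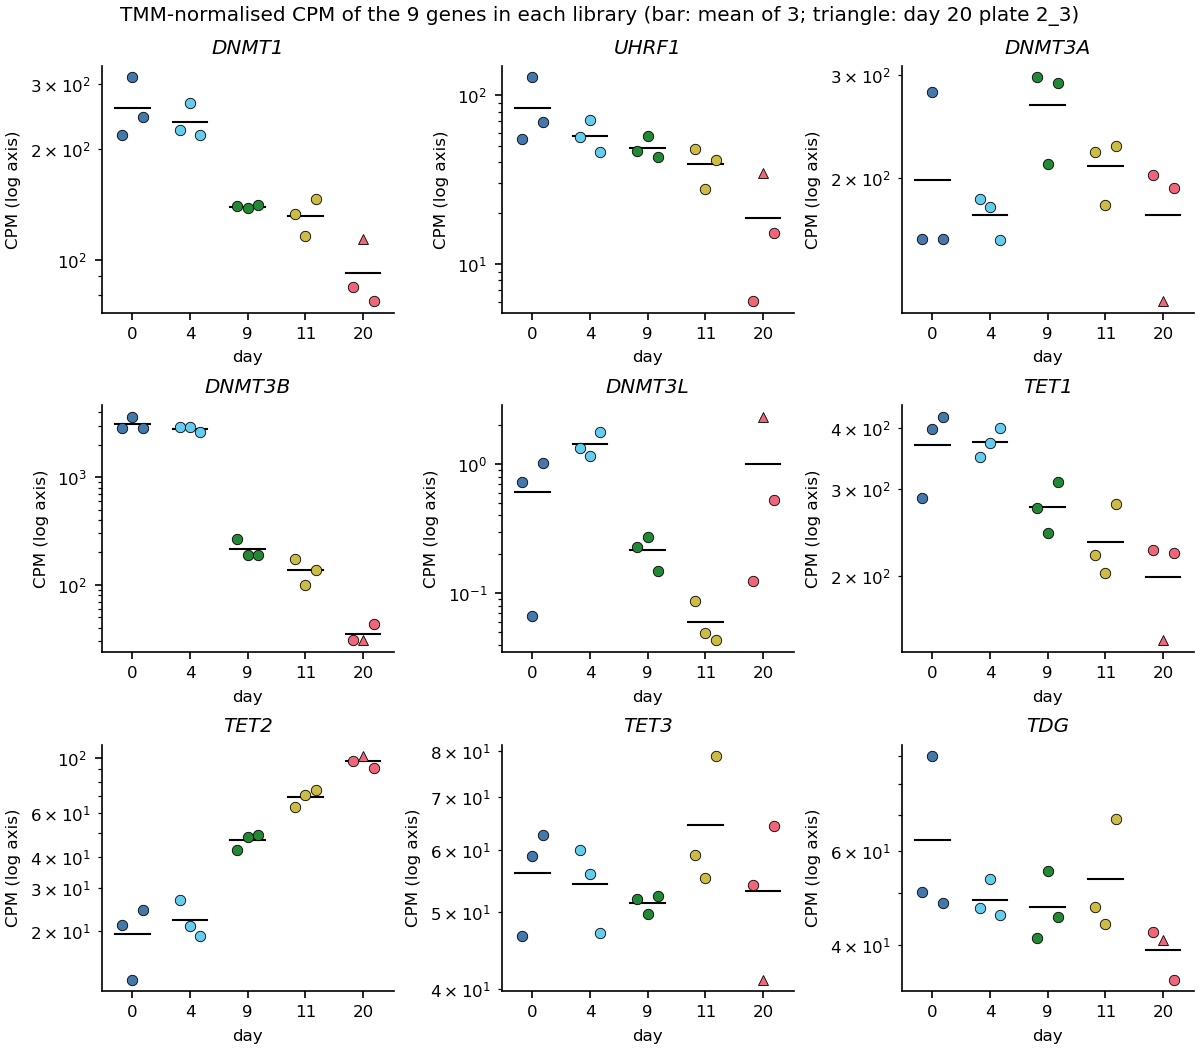
CPM of the 9 genes in each library by day of differentiation, on logarithmic axes that differ between panels. Points are the 3 libraries of a day, bars their mean, and the triangle the day 20 library of plate 2_3. DNMT3B went from a mean of 3118 CPM on day 0 to 34.96 on day 20, and TET2 from 19.4 to 96.97.

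DNMT3B (ENSG00000088305, chr20:32762385-32809359, plus strand, GRCh38), the de novo methyltransferase of early development, had 2878, 3640 and 2835 CPM in the libraries of day 0 and 2894, 2914 and 2615 CPM in those of day 4. On day 9 it had 269.2, 190.1 and 189.8 CPM, on day 11 172.4, 100.5 and 137.8 CPM, and on day 20 30.55, 30.54 (plate 2_3) and 43.8 CPM. Every library of a later day was below every library of the day before, except between days 0 and 4, which overlapped. By mean rescaled TPM it ranked 17 among all genes on day 0 and 27 on day 4, then 709, 1274 and 5581 on days 9, 11 and 20. The mean of day 0 was 89.2 times that of day 20, and the fitted log2 fold change between these days was −6.43 ± 0.42 (n = 3 and 3, edgeR adjusted p = 0.000165). Late against early days the log2 fold change was −4.87 ± 0.18 (SE, n = 9 and 6 libraries, edgeR adjusted p = 1.70e-10). Among 2443 genes that averaged 100 CPM or more over the early libraries, 24 had a lower log2 fold change.

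The fall of DNMT3B was concentrated between days 4 and 9, with a log2 fold change of −3.64 ± 0.19 (n = 3 and 3, edgeR adjusted p = 4.33e-06). DNMT3B was lower in each of the 3 sequencing lanes that held a library of both days, which already follows from the days not overlapping. From day 9 to day 11 the log2 fold change was −0.68 ± 0.24 and did not pass (edgeR adjusted p = 0.205). From day 11 to day 20 it was −1.92 ± 0.30 (edgeR adjusted p = 0.0292). DNMT3B was the only one of the 8 genes tested that passed at this step (background 0.435% lower and 1.12% higher). That call was lost when any of the 3 libraries of day 11 or the plate 2 library of day 20 was left out, with log2 fold changes of −1.75 to −2.16 and adjusted p of 0.0534 to 0.192, although the days did not overlap. It was also lost with the lane as a block (−1.91, adjusted p = 0.0864) and with the plate as a block (−2.10, adjusted p = 0.0893).

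DNMT3A (ENSG00000119772, chr2:25227855-25342590, minus strand), the de novo enzyme that remains in most differentiated tissues, followed another course. It had 157.5, 280.7 and 157.3 CPM on day 0, 184.3, 178.3 and 156.9 CPM on day 4, and 297.1, 211.2 and 291.2 CPM on day 9. On day 11 it had 221.9, 180.2 and 227 CPM, and on day 20 202.8, 123.2 and 192.4 CPM, with the lowest value in plate 2_3. The libraries of day 9 all stood above those of day 4, and the other neighbouring days overlapped. DNMT3A rose from day 4 to day 9 with a log2 fold change of 0.68 ± 0.16 (n = 3 and 3, edgeR adjusted p = 0.00734), a call lost with all 15 libraries in one fit (log2 fold change 0.62, adjusted p = 0.0926). Late against early days its log2 fold change was 0.20 ± 0.17 (95% interval −0.15 to 0.56, edgeR adjusted p = 0.325).

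The share of DNMT3B among the de novo enzymes fell. In rescaled TPM, DNMT3B made up 97.65% ± 0.466 (SD, n = 3) of the summed DNMT3A and DNMT3B level on day 0 and 97.7% ± 0.0694 on day 4. The share was 67.7% ± 4.19 on day 9, 62.4% ± 3.995 on day 11 and 34.8% ± 5.88 on day 20. All late libraries lay between 28.1% and 70.2% and all early ones between 97.1% and 97.9% (difference −42.7 percentage points, exact two-sided permutation test, n = 9 and 6, p = 0.0004, the smallest it can give, adjusted over 8 tests p = 0.00107). On day 20 DNMT3A was the more abundant transcript per length in all 3 libraries. Day 20 against day 0 alone could not go below an exact p of 0.1, which it reached. The share of day 20 was 39.15% in plate 2_3, 28.1% in plate 2 and 37.1% in plate 6_1.

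**Figure D2:**
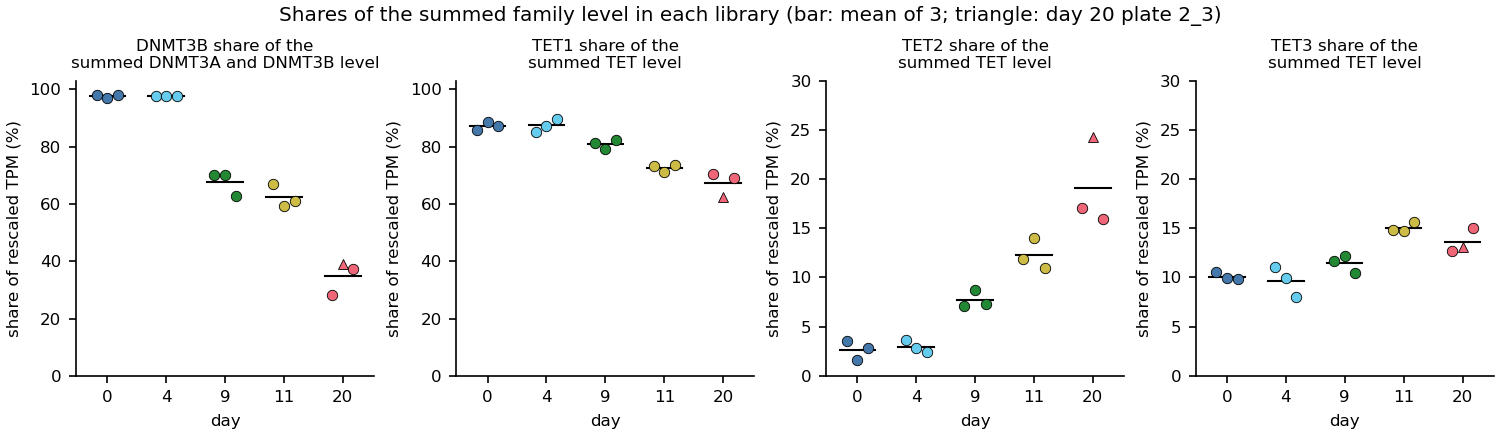
Share of DNMT3B in the summed rescaled TPM of DNMT3A and DNMT3B, and of TET1, TET2 and TET3 in the summed rescaled TPM of the TET genes, in percent by day. Points are the 3 libraries of a day, bars their mean, and the triangle is plate 2_3 of day 20. The DNMT3B share went from a mean of 97.65% to 34.8% and the TET2 share from 2.67% to 19.1%.

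DNMT3L (ENSG00000142182, chr21:44246339-44262216, minus strand), the catalytically inactive cofactor, was near the limit of detection throughout. It had 20, 2 and 12 counts on day 0, 40, 25 and 41 on day 4, 4, 6 and 4 on day 9, 2, 1 and 1 on day 11, and 3, 52 and 9 on day 20. The 52 counts were in plate 2_3, where the level of silent genes would give 22.2 reads over a gene of this length, 42.75% of the count. From day 4 to day 9 DNMT3L fell with a log2 fold change of −2.67 ± 0.38 (edgeR adjusted p = 0.000626), on no more than 41 counts. Late against early days the log2 fold change was −1.89 ± 0.60 (n = 9 and 6, edgeR adjusted p = 0.0154) and −2.44 without plate 2_3 (adjusted p = 0.000727). That call was lost with limma on log2(TPM + 1), at −0.73 (adjusted p = 0.0874), and at a threshold of 0.01. Day 20 against day 0 gave 0.87 ± 1.16 (edgeR adjusted p = 0.619), with the opposite sign, −0.83, without plate 2_3 (adjusted p = 0.589). Days 11 against 9 and 20 against 11 were not tested, since the gene did not pass the filter on low counts there. Of its exon bases 13% overlap DNMT3L-AS1 on the opposite strand, and how strand was treated in counting is not given in the sources used here.

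DNMT1 (ENSG00000130816, chr19:10133342-10231286, minus strand), which copies methylation at replication, had 218.6, 312.7 and 244 CPM on day 0 and 224.9, 266.1 and 218 CPM on day 4. The level was 139.5, 137.8 and 140.3 CPM on day 9, 133, 115.5 and 146.4 CPM on day 11, and 84.14, 114 and 76.97 CPM on day 20, the highest of these in plate 2_3. No late library reached the lowest early one. The log2 fold change late against early was −1.05 ± 0.13 (n = 9 and 6, edgeR adjusted p = 9.97e-06), and −0.71 ± 0.12 from day 4 to day 9 alone (edgeR adjusted p = 0.00155). From day 0 to day 20 the log2 fold change was −1.43 ± 0.30 (n = 3 and 3, edgeR adjusted p = 0.00964, background 11.3% lower and 16.1% higher), and −1.67 without plate 2_3 (edgeR adjusted p = 0.00222).

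UHRF1 (ENSG00000276043, chr19:4903080-4962154, plus strand), which guides DNMT1 to newly copied DNA, had 54.8, 127.3 and 69.24 CPM on day 0, 56.18, 70.82 and 45.89 CPM on day 4 and 46.83, 57.27 and 42.8 CPM on day 9. It had 48.08, 27.89 and 41.34 CPM on day 11. On day 20 it had 6.019 CPM in plate 2, 34.58 CPM in plate 2_3 and 15.29 CPM in plate 6_1. The early and late libraries overlapped, and the day 20 libraries of plates 2 and 6_1 were the lowest of all. Late against early days UHRF1 fell with a log2 fold change of −1.07 ± 0.30 (n = 9 and 6, edgeR adjusted p = 0.00747), and −1.35 without plate 2_3 (edgeR adjusted p = 0.00026). Unlike DNMT1 it did not pass from day 4 to day 9, with a log2 fold change of −0.18 ± 0.18 (95% interval −0.58 to 0.22, edgeR adjusted p = 0.429). The difference between the 2 genes was not tested. Day 20 against day 0 gave −2.07 ± 0.63 (edgeR adjusted p = 0.0421). That call was lost without day 0 replicate 2, day 0 replicate 3 or the day 20 library of plate 6_1, with adjusted p of 0.146, 0.0614 and 0.0924, and without plate 2_3 the log2 fold change was −2.96 (edgeR adjusted p = 0.00575).

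Cell cycle genes were lower on the late days, as the maintenance genes were. Of 18 listed cell cycle genes 17 fell late against early and none rose (background 24.9% lower and 27.5% higher). The median log2 fold change was −1.30 beside 0.06 over all genes tested. The mitotic kinase PLK1 (−1.35 ± 0.12), the mitotic cyclin CCNB1 (−1.44 ± 0.14) and the replicative helicase subunits MCM6 (−1.47 ± 0.15) and MCM5 (−1.96 ± 0.20) had the smallest adjusted p, 6.63e-07 to 1.84e-06 by edgeR. The summed rescaled TPM of the list lay between 3314 and 4320 on day 0, 3356 and 3866 on day 4, 2198 and 2440 on day 9, and 1603 and 2263 on day 11. On day 20 it was 660 in plate 2, 1937 in plate 2_3 and 943.6 in plate 6_1, and plate 2_3 was likewise the highest day 20 library for DNMT1 and UHRF1. The sum of plate 2_3 is in rescaled TPM, which stood higher against CPM there than in the other day 20 libraries. From day 4 to day 9 the list's sums did not overlap, whereas those libraries overlapped for UHRF1. The part of the cell cycle genes in these levels was not tested.

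**Figure D3:**
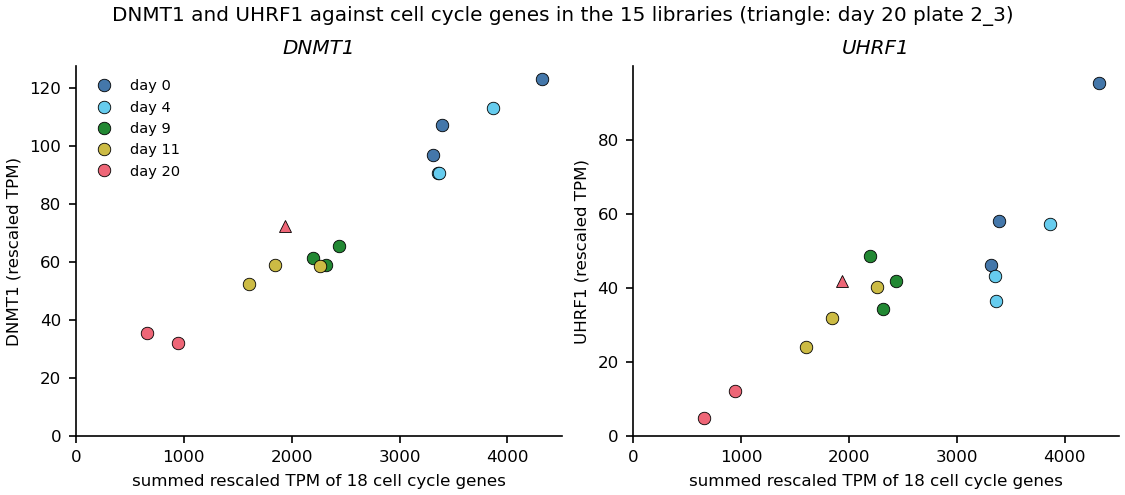
Rescaled TPM of DNMT1 (left) and UHRF1 (right) against the summed rescaled TPM of 18 cell cycle genes, 1 point per library, coloured by day, all axes from 0. The triangle is plate 2_3 of day 20, at 1937 on the horizontal axis, where the other libraries of that day are at 660 and 943.6.

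TET1 (ENSG00000138336, chr10:68560337-68694487, plus strand), the TET enzyme typical of pluripotent cells, had 287.9, 397.6 and 421 CPM on day 0 and 348.8, 371.9 and 399.2 CPM on day 4. It had 274.7, 244.4 and 310.8 CPM on day 9, 221.3, 202.7 and 280 CPM on day 11 and 226.4, 148.2 and 222.6 CPM on day 20, the lowest in plate 2_3. In rescaled TPM plate 6_1 was the lowest of day 20, with 97.45 beside 99.25 in plate 2_3. The early and late libraries overlapped in 1 place, where day 0 replicate 1 was below a library of day 9. TET1 fell late against early with a log2 fold change of −0.66 ± 0.14 (n = 9 and 6, edgeR adjusted p = 0.00117). The step from day 4 to day 9 was −0.38 ± 0.14 (edgeR adjusted p = 0.047). With the lane as a block the same log2 fold change had an adjusted p of 0.117, and the call was also lost with library size alone (0.0910), a filter at 1 CPM (0.0538) and all 15 libraries in one fit (0.169). It was lost as well when any library of day 4 or the plate 2 or plate 6_1 library of day 9 was left out, with adjusted p of 0.0562 to 0.159.

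TET2 (ENSG00000168769, chr4:105145875-105279816, plus strand), the TET enzyme without a CXXC domain of its own, went the other way. It had 21.21, 12.74 and 24.27 CPM on day 0, 26.63, 21.02 and 19.11 CPM on day 4 and 42.62, 48.01 and 48.95 CPM on day 9. On day 11 it had 63.61, 70.71 and 74.03 CPM, and on day 20 97.38, 102.2 and 91.37 CPM, the highest in plate 2_3. The level of silent genes would give 8.65% of the count in plate 2_3, and 93.32 CPM remained without these reads, below plate 2. From day 4 on, every library of a later day was above every library of the day before. Late against early days the log2 fold change was 1.71 ± 0.15 (n = 9 and 6, edgeR adjusted p = 3.51e-07), and day 20 against day 0 it was 2.37 ± 0.32 (n = 3 and 3, edgeR adjusted p = 0.00179), a fitted 5.19-fold rise. In that comparison TET2 was the 1 gene of the 9 that rose (background 16.1% higher), and DNMT1, DNMT3B and UHRF1 fell (background 11.3% lower). The rise passed from day 4 to day 9 with 1.12 ± 0.15 (edgeR adjusted p = 0.000394). The steps to day 11 (0.56 ± 0.13, edgeR adjusted p = 0.0699) and to day 20 (0.53 ± 0.23, adjusted p = 0.298) did not pass.

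TET3 (ENSG00000187605, chr2:73984910-74108176, plus strand), the third oxidase, stayed between 41.08 and 78.84 CPM in all 15 libraries. Both extremes of TET3 were among the late libraries, the lowest in plate 2_3. Its log2 fold change late against early was 0.03 ± 0.13 (95% interval −0.25 to 0.30, n = 9 and 6, edgeR adjusted p = 0.880). TDG (ENSG00000139372, chr12:103965822-103988874, plus strand), which excises oxidised methylcytosine, had between 45.46 and 90.27 CPM in the early and between 34.41 and 68.65 CPM in the late libraries. Its log2 fold change was −0.26 ± 0.16 (95% interval −0.60 to 0.09, edgeR adjusted p = 0.196). These 2 intervals leave out a change of log2 1 in either direction.

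Within the TET family the mean share of TET1 in the summed rescaled TPM was 87.2%, 87.4%, 80.85%, 72.7% and 67.3% on days 0, 4, 9, 11 and 20. TET2 made up 2.67% ± 0.996 (SD, n = 3) on day 0 and 19.1% ± 4.54 on day 20, and TET3 10.1% ± 0.377 and 13.6% ± 1.26. The TET2 share of day 20 was 24.3% in plate 2_3, 17.0% in plate 2 and 16.0% in plate 6_1. In plate 2_3 the level of silent genes would give 3.36% of the TET1 count, 8.65% of TET2 and 16.02% of TET3, which the shares include. The late libraries held a TET1 share of 62.6% to 82.2% and the early ones of 85.25% to 89.6%, without overlap (exact two-sided permutation test, n = 9 and 6, p = 0.0004, the smallest it can give, adjusted over 8 tests p = 0.00107). TET1 remained the most abundant TET transcript in every library. The summed level of the 3 genes was 188.8 ± 33.6 rescaled TPM on day 0 and 147.5 ± 9.65 on day 20. DNMT1, DNMT3A and DNMT3B summed to 2964 ± 240.9 and 148.2 ± 25.2, and DNMT1 and DNMT3A without DNMT3B to 176.7 ± 31.7 and 112.6 ± 20.75. These day 20 sums depend on the measure used, since rescaled TPM and CPM part in plate 2_3.

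**Figure D4:**
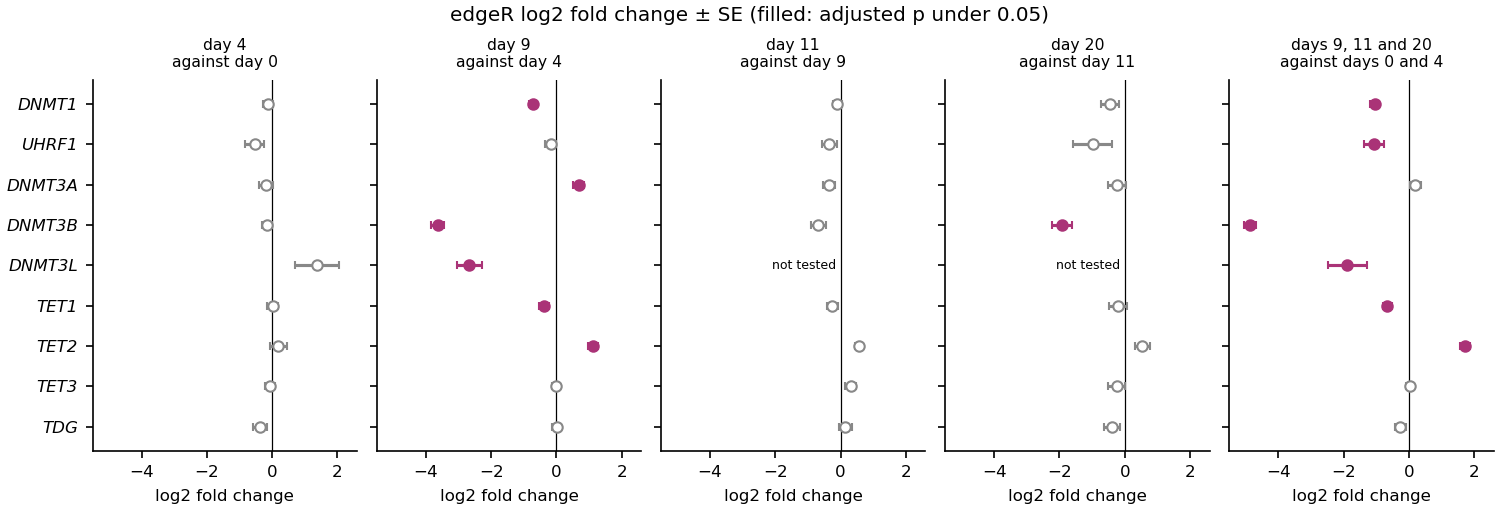
Log2 fold changes of the 9 genes with their standard errors from edgeR in 4 successive steps and in the late against the early days. Filled points have an adjusted p under 0.05. The step from day 4 to day 9 holds 6 of them, the steps to day 4 and day 11 none and the step to day 20 only DNMT3B. Over all genes tested 24.7% were lower and 24.3% higher from day 4 to day 9. The shares were 0.00% each to day 4, 1.00% and 1.39% to day 11, and 0.435% and 1.12% to day 20.

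Seen by step, none of the 9 genes passed from day 0 to day 4, where edgeR called 0 of 20964 genes (background 0.00% in each direction) 741 had an unadjusted p under 0.05, DESeq2 and limma called 0, and edgeR with no filter on low counts called 64. DNMT3B had a log2 fold change of −0.16 ± 0.14 there and DNMT3L 1.37 ± 0.67 (adjusted p = 0.885 for both). Without day 0 replicate 2, which had 2 counts, that of DNMT3L was 0.73. From day 4 to day 9, 4 genes fell (background 24.7%) and 2 rose (background 24.3%). From day 9 to day 11 none of the 8 genes tested passed (background 1.00% lower and 1.39% higher). In the order of mean rescaled TPM, DNMT3B led from day 0 to day 11, though on day 11 its libraries overlapped those of TET1 (124.8 ± 32.5 and 106.2 ± 11.4). On day 20 TET1 led with 99.0 ± 1.42, followed by DNMT3A with 66.1 ± 2.93, and DNMT1, TDG, DNMT3B and TET2 came next, each with libraries that overlapped those of the following gene except TET2. In CPM TET1 and DNMT3A spread more widely on day 20, 199.1 ± 44.1 and 172.8 ± 43.2 (SD), with plate 2_3 the lowest for each.

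The genes whose log2 CPM followed each member most closely over the 15 libraries differed from member to member. For UHRF1 they were the kinetochore gene ZWINT (Pearson r 0.991), the exonuclease EXO1 (0.973) and the repressor E2F7 (0.970). DNMT1 was closest to the nuclear export receptor CSE1L (0.992), CLN6 (0.990) and HMGB3 (0.988). For DNMT3B they were the zinc finger genes ZNF92, ZNF101 and ZNF589 (0.989 each), for TET1 CD276 (0.956), LSM14A (0.945) and TENM3 (0.945), and for TDG DDX52 (0.980), SLC38A1 (0.949) and SRSF6 (0.931). TET2 was closest to LINC00963 (0.978), the neuregulin receptor ERBB4 (0.977) and TMOD1 (0.976), which caps actin filaments. DNMT3A (CNOT2 0.903, TDP2 0.900, ZCCHC3 0.895) and TET3 (GPR137 0.882, ANKS1A 0.860, MED25 0.832) had no neighbour above 0.91. These are the highest of 18049 genes over libraries that share days, given as a description. Between members, DNMT1 had an r of 0.95 with DNMT3B, −0.94 with TET2 and 0.85 with UHRF1 over the same libraries.

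Of 14 partners of the methyltransferases in a written list 12 fell and 1 rose late against early (background 24.9% lower and 27.5% higher). The median log2 fold change was −1.06 beside 0.06 over all genes. The zinc finger protein ZBTB24 (−1.40 ± 0.14), the histone H3K9 methyltransferase SUV39H1 (−1.20 ± 0.13), the H3K36 methyltransferase NSD1 (−1.16 ± 0.13) and DPPA3 (−3.67 ± 0.42), which keeps UHRF1 from chromatin, had the smallest edgeR adjusted p, 1.02e-06 to 5.36e-06. SUV39H1 went from a mean of 16.95 CPM on day 0 to 5.28 on day 20 and NSD1 from 499.3 to 166.6. Proteins that bind CpG without methylation through a CXXC domain fell in 4 of 6 cases, with a median of −0.43 over the list, namely KDM2B (−1.40 ± 0.10), KMT2A (−0.80 ± 0.11), FBXL19 (−0.44 ± 0.11) and KDM2A (−0.42 ± 0.12). The 1 partner that rose, the imprinting factor ZFP57 (log2 fold change 1.5, adjusted p = 0.0231), was named after its value was seen.

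Of 8 genes in a list of methyl-CpG readers and their relatives 3 rose, MBD1 (0.82 ± 0.12), ZBTB4 (0.76 ± 0.15) and UHRF2 (0.35 ± 0.11), the paralogue of UHRF1, and MBD3, a relative that does not bind methylated CpG selectively in mammals, fell (−0.39 ± 0.14), with a median of 0.24 over the list. In the list of genes of base excision repair and of the GADD45 family, 3 of 14 rose and 4 fell, with a median of −0.04. Over all genes tested 27.5% were higher and 24.9% lower, and the counts of these lists were not tested against that background. The poly(ADP-ribose) polymerase PARP1 (−1.93 ± 0.14) and the uracil glycosylase UNG (−1.16 ± 0.14) fell, and GADD45A (3.32 ± 0.28) and GADD45B (2.59 ± 0.36) rose, PARP1 from 944.1 to 247 and GADD45A from 5.54 to 57.7 mean CPM between days 0 and 20. NEIL1 (0.62), which rose, and NEIL3 (−0.70) and GADD45G (−1.40), which fell, were named after their values were seen.

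Metabolites were not measured, and the next counts are of transcripts. Of 12 genes of the folate and methionine cycles, which supply the methyl donor S-adenosylmethionine, 5 fell and 3 rose (median −0.20), with MTHFD1 (−1.56 ± 0.19), MTAP (−0.67 ± 0.14) and SHMT1 (−0.55 ± 0.16), which fell, the 3 of smallest adjusted p. Named after their values were seen, MAT2B fell (−0.46) and AHCYL1 (0.89) and MTR (0.52) rose. Among 11 genes of 2-oxoglutarate metabolism and TET partners 4 rose and 2 fell (median 0.08). The background was 27.5% higher and 24.9% lower, and the counts of these lists were not tested against it. The cytosolic isocitrate dehydrogenase IDH1 fell (−1.41 ± 0.21) and the mitochondrial IDH2 rose (1.55 ± 0.22). The CXXC proteins CXXC4 (3.74 ± 0.20) and CXXC5 (1.15 ± 0.25) rose as well, and CXXC4 is known to bind TET2. IDH3A (0.79), which also rose, was named after its value was seen.

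**Figure D5:**
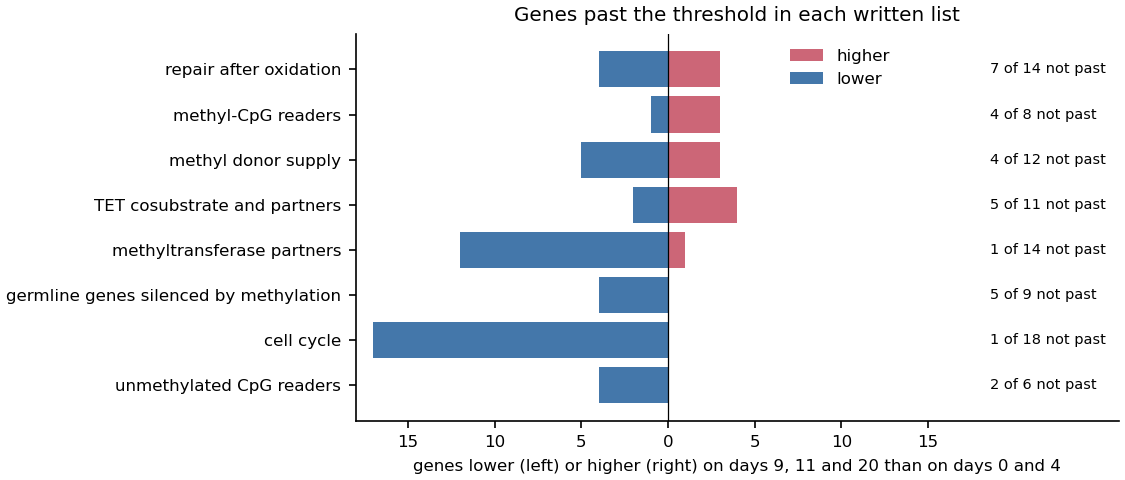
Number of genes of each written list that were lower (left) or higher (right) on the late than on the early days by edgeR at an adjusted p under 0.05, with the number not past the threshold. Cell cycle genes (17 of 18 lower) and methyltransferase partners (12 of 14 lower) stand mostly to the left, and methyl-CpG readers have 3 higher and 1 lower. Over all genes tested 24.9% were lower and 27.5% higher.

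Germline genes, which methylated promoters keep silent in somatic cells, fell in 4 of the 9 cases tested out of 12 listed and rose in none. PIWIL2 (−3.34 ± 0.31), TDRD1 (−4.67 ± 0.62), DAZL (−3.46 ± 0.66) and SYCP1 (−4.31 ± 0.88) were the 4. The background was 24.9% lower and 27.5% higher. The median log2 fold change over the list was 0.15, and −0.31 without plate 2_3. Their list summed to 29.8 to 37.1 rescaled TPM on day 0, 3.59 to 5.34 on day 9 and 4.21 to 8.78 on day 11. On day 20 it summed to 9.20 in plate 2, 8.01 in plate 6_1 and 79.3 in plate 2_3, the library with reads on silent genes.

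Markers of cell types moved with the same days. All 9 pluripotent stem cell markers fell late against early, and their summed rescaled TPM went from 7820 to 8880 on day 0 to 128.7 to 180.3 on day 20. All 8 cardiomyocyte markers, all 8 endoderm and liver markers, all 7 mesenchymal markers and 3 of 6 endothelial markers rose. Of 6 epithelial markers 3 rose and 3 fell (background 27.5% higher and 24.9% lower). The median log2 fold changes of these lists were −5.06, 7.28, 7.45, 1.99, 2.05 and 0.62. On day 20 the cardiomyocyte sum was 26110 in plate 2, 29130 in plate 2_3 and 6627 in plate 6_1, the endoderm and liver sum 24230, 993.2 and 26310, and the mesenchymal sum 3395, 1326 and 26130. No marker of these lists was at 0 in all libraries of any day. In these same libraries TET2 lay between 91.37 and 102.2 CPM, DNMT3B between 30.54 and 43.8 and TDG between 34.41 and 42.26. DNMT1 lay between 76.97 and 114 CPM, DNMT3A between 123.2 and 202.8, TET1 between 148.2 and 226.4 and TET3 between 41.08 and 64.22. UHRF1 lay between 6.019 and 34.58 CPM and DNMT3L between 0.1245 and 2.332. The part of cell type makeup in the levels of the 9 genes was not tested.

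Without plate 2_3 the late against early comparison called the same 6 of the 9 genes, and day 20 against day 0 the same 4. Over all genes day 20 against day 0 then called 8993, in place of 6027 with this library. In a fit chosen after the data were seen, leaving out plate 2_3 gave 5 genes of the reader list higher and 1 lower, 5 repair genes higher and 5 lower, and 2 methyltransferase partners higher and 12 lower. The other written lists gave the counts printed above, while over all genes 7504 were higher and 7359 lower of 25198 tested.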

How the data were processed

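Bulk RNA-seq libraries of H1 cells, 3 per day, were grouped by labelled day. The labels were followed where other sources list other days. The authors used STAR 2.5.2b to align 150-base paired reads to GRCh38 with the gene models of Ensembl release 79, counted with featureCounts 1.5.1, removed ribosomal and mitochondrial genes and deposited raw counts per gene. The strand setting is not given in the sources used here. The authors also deposited TPM computed from these counts. Quality values deposited per sample are the RNA integrity number, a score, the fraction of reads mapped uniquely, and the sequencing lane.

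Counts were tested with edgeR 4.0.16 under R 4.3.3 (low-count filter filterByExpr at 10 per library and 15 in all, TMM, robust quasi-likelihood F test, two-sided, Benjamini-Hochberg adjustment over all genes tested, threshold 0.05), in fits of the 6 libraries of 2 days or, for late against early days, of all 15. The SE is the log2 fold change divided by the square root of F. TPM was rescaled without 4395 genes of implied length under 200 bases, which held 5.66% to 29.2% of it. Shares were compared by exact permutation tests in scipy 1.17.1. Depth of 11990302 to 33469703 counts limits mainly DNMT3L. The labels call the replicates biological and also speak of triplicate wells, so that p-values measure the spread between these libraries. The fits were tested on simulated data. This covered day 20 against day 0 and late against early days, and the other pairs of days were not simulated. Between the 3 libraries of day 20 and the 3 of day 0 edgeR missed the smaller differences and most of the larger ones. Its share of false calls was above the threshold of 0.05 there. Late against early edgeR found most of the larger differences and missed most of the smaller ones, with a share of false calls under that threshold. DESeq2 made a larger share of false calls than edgeR in both. A gene not called may therefore still differ.

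Alternatives were DESeq2 1.42.0, other scalings and filters, limma 3.58.1 on log2 TPM, a threshold of 0.01, one fit of all libraries, plate or lane as a block, and each library left out. The 9 genes and all lists were chosen with earlier results of these data known. All 9 genes were named, with up to 4 genes per list by smallest adjusted p late against early, and the 3 genes closest to each by Pearson r among genes with a mean of at least 1 CPM. Some genes of the lists are counted but not reported by name here. Positions come from GENCODE v44. Single-cell data were not analysed here.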

Additional observations from a re-analysis of the deposited data

How the results depend on the processing

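Of 529 alternative values of the reported log2 fold changes, 487 kept their direction and their side of the threshold, 28 no longer passed, 9 newly passed and 5 changed sign. The fall of DNMT3B, DNMT1, UHRF1 and TET1 and the rise of TET2 late against early passed under all 24 alternatives run for each. The sign changed for TET3 late against early, a value near 0 (−0.0039 with no filter on low counts, and −0.05 to 0.09 with 1 library left out), and for DNMT3L on day 20 against day 0 (−0.83 to 1.35 with 1 library left out, the lowest without plate 2_3). DNMT3A rose late against early when day 20 was left out (log2 fold change 0.41, edgeR adjusted p = 0.0361). UHRF1 on day 20 against day 0 no longer passed with upper-quartile scaling, library size alone or limma, and TET1 passed there with DESeq2, both other scalings, a filter at 1 CPM and one fit of all libraries. TDG passed there in the fit of all libraries alone. The number of the 9 genes past the threshold moved by over 1.5 times in 2 steps: from 0 to 1 with DESeq2 (TET2) for day 11 against day 9, and from 1 to 2 with all 15 libraries in one fit (DNMT3B and DNMT3L) and to 0 with a threshold of 0.01 or the sequencing lane as a block for day 20 against day 11. With 1 library left out that count was 0 to 1. Library size alone moved the median log2 fold change of all genes by 0.12 on day 20 against day 0 and late against early, and upper-quartile scaling by 0.11 on day 20 against day 11. The cause of these changes was not tested.

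Plate numbers are shared by some libraries, and the deviations of libraries of 1 plate from their day means correlated at 0.155 and 0.387 between days 9 and 11 and at −0.191, 0.00921 and 0.395 between days 11 and 20, so the numbers were not taken as pairs. With the plate as a replicate block, 2 of the 9 genes (DNMT3B and TET2) passed on day 11 against day 9, where 1971 of all genes did in place of 495, and 0 passed on day 20 against day 11, where 3 did in place of 332. The other comparisons were not fitted with this block.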
